A study of Mus musculus with 8 samples.

Results

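Activated regulatory T (aTreg) cells that lost Foxp1 were compared with WT aTreg cells across all measured genes. The comparison rests on the 4 aTreg libraries of 8 in the series, 2 from Foxp1-deficient and 2 from WT mice, chosen by their labels, and each Foxp1-deficient library was paired with the WT library of the same replicate number. All mice were C57BL/6 and 6 to 8 weeks old. WT mice carried Foxp3-YFP-Cre alone, and Foxp1-deficient mice carried Foxp3-YFP-Cre with loxP-flanked Foxp1 on both alleles (Foxp1fl/fl), so the Cre allele was present in controls too. Cre was driven from the Foxp3 locus, which is active in every Treg cell, so aTreg cells may have lost Foxp1 before or after they were activated, and the design does not separate these. The aTreg cells were sorted from spleen and peripheral lymph nodes as CD4+YFP+CD44highCD62Llow cells, and the other 4 libraries hold resting Treg (rTreg) cells, CD44lowCD62Lhigh, of the same 2 genotypes. The labels do not say how many mice gave a library or whether mice were pooled, so p-values cannot be read as spread between mice. They rest on the spread left among all 8 libraries after the difference between replicate numbers was fitted.

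Foxp1 is a forkhead transcription factor that can repress its targets and that is known for keeping conventional T cells quiescent. Foxp3, another forkhead factor, defines the Treg lineage and can form complexes with Foxp1. Treg cells restrain immune responses through Ctla4, through the high-affinity IL-2 receptor and through secreted and surface molecules. Resting Treg cells recirculate through lymph nodes by means of Ccr7 and other homing receptors, while aTreg cells have met antigen, divide more and enter tissues through other chemokine receptors and integrins.

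Between 8863453 and 15268623 reads were counted on genes in each aTreg library, and between 6373170 and 15268623 in all 8. Libraries with replicate number 1 held Y-linked transcripts and no more than 3 Xist counts, and those with number 2 held at least 15098 Xist counts and no count of 4 Y-linked genes, so each pair was of 1 sex and the pairs differed in sex. Levels are given as normalized CPM (counts scaled by library size with TMM factors) in the order WT replicate 1, WT replicate 2, Foxp1-deficient replicate 1, Foxp1-deficient replicate 2, and a change is a log2 fold change of Foxp1-deficient over WT, with its standard error (SE) and its p from the quasi-likelihood test of edgeR, adjusted after Benjamini and Hochberg. A level of 3 counts, taken as the floor of detection, corresponded to 0.196 to 0.338 CPM in the aTreg libraries, and this floor covers counting error only. In RNA from sorted populations, a change in the share of cells that express a gene and a change in RNA per cell cannot be told apart.

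The targeted gene was checked first. Foxp1 (ENSMUSG00000030067; chromosome 6, 98925338 to 99522721, minus strand, mm10) was at 234 and 230.3 CPM in WT and at 126 and 102 CPM in Foxp1-deficient aTreg cells. Both Foxp1-deficient libraries lay below both WT libraries, and the log2 fold change was -1.03 (SE 0.096, adjusted p = 0.00194). Without the replicate block the adjusted p from edgeR was 0.0183. In rTreg cells the levels were 353 and 384 CPM in WT against 342 and 338 CPM, a log2 fold change of -0.12 (adjusted p = 0.460, edgeR). The count covers the whole gene, exons outside the loxP sites included, so it does not measure how completely the floxed part was lost.

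Across the 14540 genes tested, 344 were higher (2.37%) and 242 lower (1.66%) in Foxp1-deficient aTreg cells at an adjusted p under 0.05 and at least 1.5-fold. These shares are the background for the functional lists below. Both libraries of one genotype lay above both of the other in 6072 of all genes tested, and in 568 of the 586 called. Of all genes tested, 7317 had a log2 fold change above 0. The share of all genes that were higher in both pairs is not given here. Higher genes had a median log2 fold change of 1.21 and lower genes one of -1.16, against 0.0018 over all genes tested. Of the called genes, 223 rose and 153 fell at least 2-fold, and 71 and 49 at least 4-fold. A fit without the replicate block called 43 higher and 34 lower genes, and all 77 were among the 586. Leaving out 1 aTreg library at a time left 128 higher and 93 lower genes without WT replicate 2, 239 and 143 without Foxp1-deficient replicate 1, 72 and 45 without Foxp1-deficient replicate 2, and 308 and 229 without WT replicate 1. Of 126 called genes followed through these fits, 36 were called in all 4 of them, and 26 of those were also called without the block. These 26 were Foxp1, Actn1, Bach2, Ccr7, Col6a4, Gata1, Gbp2b, Gpr83, Gsta4, Il6st, Inpp5f, Itga5, Itga6, Nsg2 and Plagl1, which fell, and Epas1, Gfra1, Il18rap, Itgad, Lgals1, Ly6a, Mpzl2, Porcn, Qpct, Sema6d and Tkt, which rose. For every other called gene named below, at least 1 of these 5 fits gave no call.

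**Figure D1:**
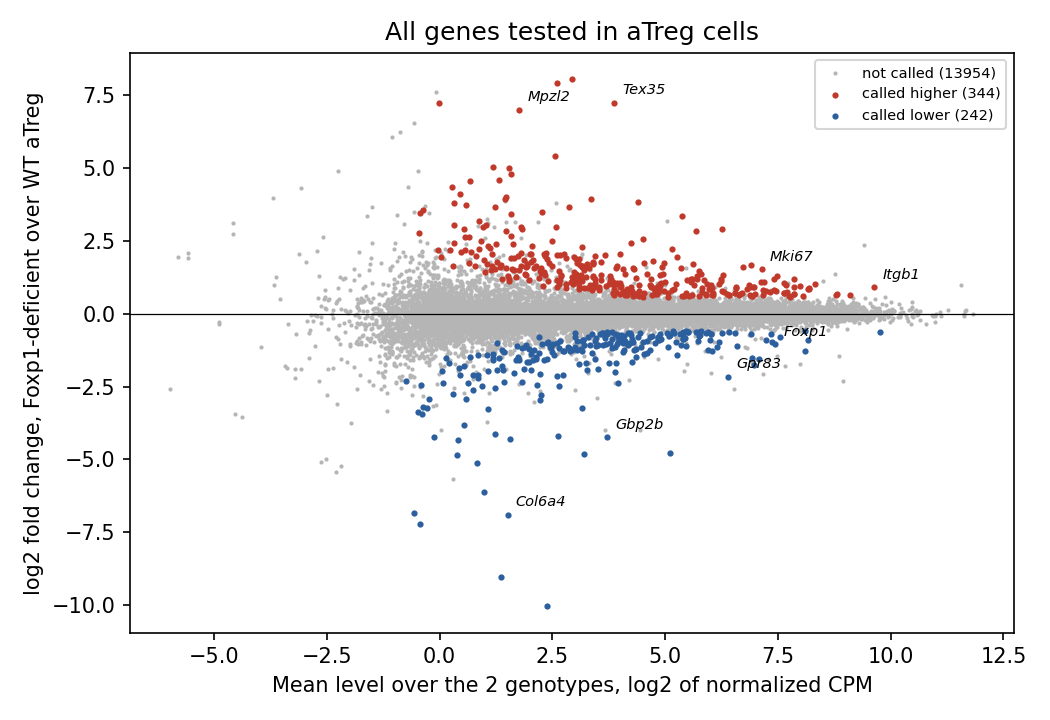
Each point is a gene tested in aTreg cells, with its mean level over the genotypes (log2 of normalized CPM) on the x axis and its log2 fold change on the y axis; the 344 genes called higher are red and the 242 called lower are blue. Foxp1 lies among the lower genes at -1.03, and the widest changes belong to genes of low level such as Mpzl2 and Col6a4. The 8 tested genes with no count in any aTreg library are not drawn.

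Genes of cell division had the largest share of called members among the 42 lists used. Of 69 tested genes of mitosis and chromosome segregation, 51 were higher (73.9%, against 2.37% of all genes) and 0 lower, with a median log2 fold change of 1.14. Mki67, which encodes the proliferation antigen Ki-67, was at 52.4 and 94.8 CPM in WT and at 173 and 244 CPM in Foxp1-deficient cells. Both Foxp1-deficient libraries exceeded both WT libraries, and each WT library was also far from the other. The log2 fold change was 1.53 (SE 0.090, adjusted p = 3.23e-04). Top2a, the topoisomerase that untangles replicated chromosomes, was at 31.3 and 58.1 CPM against 92.1 and 128 CPM, a log2 fold change of 1.32 (SE 0.11, adjusted p = 0.00161). The microtubule motors Kif2c and Kif18b and the checkpoint kinase Bub1 had the largest changes of the list, with log2 fold changes of 2.32, 2.01 and 2.06. The kinases that drive mitosis rose as well, Cdk1 by 1.47, Aurkb by 1.76 and Plk1 by 1.29 on the log2 scale, as did the cyclins Ccnb1 and Ccnb2 by 1.33 and 1.57 and the survivin gene Birc5 by 1.60. Foxm1, the forkhead factor that drives mitotic genes, rose by 1.04 (13.6 and 22.9 CPM against 6.03 and 11.5 CPM in WT).

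The increase in mitotic genes was present in each pair, and the call for single genes depended on the pairing. The median log2 ratio of the list was 1.28 in pair 1 and 1.12 in pair 2, and 67 of the 69 genes were higher in both pairs. The fitted value of 1 gene, Smc4, was below 0 (-0.15). The summed level of the list was 1525 and 1811 CPM in WT and 2235 and 2736 CPM in Foxp1-deficient cells, and replicate 2 was the higher in both genotypes. Without the replicate block, 2 of the 69 genes were called, while the median was 1.11. Leaving out 1 library at a time left 33 genes called without WT replicate 1, 27 without WT replicate 2, 26 without Foxp1-deficient replicate 1 and 10 without Foxp1-deficient replicate 2. Of the genes named here, Mki67 and Top2a were called in each of these 4 fits but not without the block, where their adjusted p-values from edgeR were 0.123 and 0.154.

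**Figure D2:**
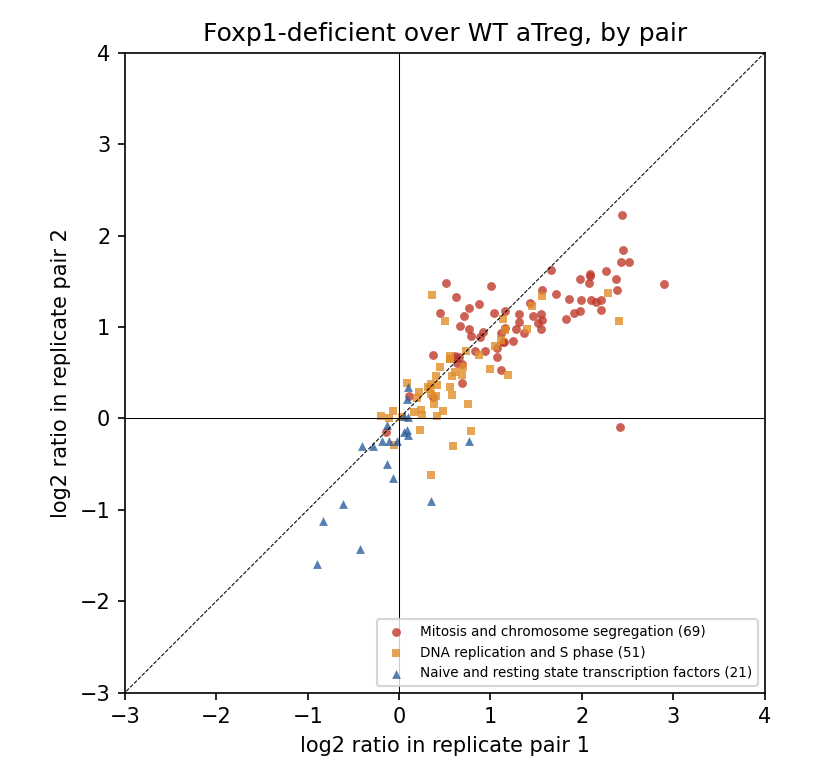
Each point is a gene, with its log2 ratio of Foxp1-deficient over WT aTreg cells in replicate pair 1 on the x axis and in pair 2 on the y axis; the dashed line marks equal ratios, and 1 gene of the naive and resting list (Dapl1) lies outside the axes. Of 69 mitosis genes 67 lie above 0 in both pairs, whereas DNA replication genes sit nearer to 0 and most genes of the naive and resting list sit at or below 0.

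Some genes of DNA synthesis and of G1 control rose as well. Among 51 tested genes of DNA replication and S phase, 10 were higher and 0 lower (19.6%), the median log2 fold change was 0.43, and 43 genes were higher in both pairs. Rrm2, the small subunit of ribonucleotide reductase, was at 12.8 and 21.2 CPM in WT and at 35.3 and 49.7 CPM in Foxp1-deficient cells, a log2 fold change of 1.32 (SE 0.13, adjusted p = 0.00240). Clspn, a replication checkpoint adaptor, rose by 1.72 on the log2 scale. Uhrf1, which guides maintenance methylation to new DNA, rose by 1.16. Mcm5, a subunit of the replicative helicase, had 67.4 and 75.5 CPM against 103 and 107 CPM and a log2 fold change of 0.55, which passed the test (adjusted p = 0.00524, edgeR) but not 1.5-fold. Called members numbered 6 without WT replicate 1, 8 without WT replicate 2, 6 without Foxp1-deficient replicate 1, 2 without Foxp1-deficient replicate 2 and 0 without the block.

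Of 34 tested genes of the E2F, Rb and G1 group, 7 were higher and 0 lower, with a median of 0.21. Those 7 were the transcription factors E2f1, E2f2, E2f7 and E2f8 with log2 fold changes of 0.84, 0.73, 1.15 and 1.75, the MAX-binding factor Mxd3 with 1.65, the G1 kinase Cdk6 with 0.82 and the cell cycle inhibitor locus Cdkn2a with 2.12. Cdkn2a was little expressed, at 6 and 9 counts in WT against 28 and 41. Cdk6 was at 96.1 and 111 CPM in WT and at 168 and 197 CPM in Foxp1-deficient cells. In the list, 3 genes were called without either WT replicate, 4 without Foxp1-deficient replicate 1, 1 without Foxp1-deficient replicate 2 and 0 without the block. The apoptosis list had 1 higher gene, Birc5, and 1 lower gene, Bmf, a pro-death BH3-only gene, among 29 tested.

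Some genes of the resting and naive T cell programme fell, while most of the list was not called. Of 22 tested transcription factors and markers of that state, 5 were lower (22.7%, against 1.66% of all genes) and 0 higher, with a median log2 fold change of -0.20. Bach2, a repressor that holds T cells in a quiescent state, was at 76.4 and 98.3 CPM in WT and at 40.9 and 32.6 CPM in Foxp1-deficient cells, a log2 fold change of -1.25 (SE 0.14, adjusted p = 0.00347). Nsg2, a naive T cell marker, was at 221 and 214 CPM in WT against 124 and 98.8 CPM, a log2 fold change of -0.97 (SE 0.079, adjusted p = 0.00125). Both genes were lower in each Foxp1-deficient library than in each WT library, a separation that 6072 of the 14540 genes tested had in either direction. Both kept their call in every leave-one-out fit and without the block. Tsc22d3, a glucocorticoid-induced factor that restrains activation, and Klf7 fell by 0.78 and 0.93. Dapl1, the fifth gene, had 5 and 131 counts in WT against 3 in each Foxp1-deficient library, so its change rests on WT replicate 2. The other main factors of that state did not reach the fold threshold. Tcf7 had a log2 fold change of -0.06, Lef1 of -0.38 and Foxo1 of -0.29 (adjusted p = 0.783, 0.178 and 0.0385, edgeR), with Tcf7 at 694 and 841 CPM in WT against 718 and 757 CPM. Tcf7 turned to 0.12 without WT replicate 2. Lower members numbered 7 without WT replicate 1, 3 without WT replicate 2, 4 without Foxp1-deficient replicate 1, 2 without Foxp1-deficient replicate 2 and 2 without the block.

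Ccr7 was 1 of 2 genes called lower in the lymph node homing and egress list, while most genes of that list lay above 0. Ccr7, the receptor for the chemokines of the T cell zone, was at 205 and 196 CPM in WT against 79.6 and 59.1 CPM, a log2 fold change of -1.56 (SE 0.10, adjusted p = 5.98e-04). S1pr1, the receptor for egress from lymph nodes, rose by 0.61 (160.0 and 179 CPM against 254 and 265 CPM, adjusted p = 0.0365, edgeR), and of 14 tested genes of this list 1 was higher and 2 were lower. The median log2 fold change of the list was 0.28, with 10 genes higher and 3 lower in both pairs. The lowest value of the list was -1.76, in a gene other than Ccr7. By the adjusted p alone, 6 of the list passed as higher and 2 as lower. Ccr7 was called in every leave-one-out fit and without the block. Cd44, which encodes a protein used in the gate, had 213 and 214 CPM against 174 and 197 CPM, a log2 fold change of -0.21 (adjusted p = 0.206, edgeR).

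Of 25 tested core Treg genes, 1 was higher and 3 lower. Foxp3 itself was at 530.3, 536, 497 and 587 CPM, with overlapping groups and a log2 fold change of 0.017 (SE 0.084, adjusted p = 0.930, edgeR), and the sign of this value changed with the setting. Ikzf2 (Helios) and Tnfrsf18 (GITR) had log2 fold changes of 0.21 and 0.17 (adjusted p = 0.155 and 0.285, edgeR). The identity markers Cd4 and Cd3e were present at 784 to 862 CPM and at 375 to 432 CPM in the 4 libraries. Il2ra, the IL-2 receptor α chain, was at 518 and 412 CPM in WT against 418 and 350.3 CPM, lower in both pairs, with a log2 fold change of -0.27 (adjusted p = 0.0429, edgeR) that did not reach 1.5-fold. Gpr83, a receptor of the Treg signature, was the lowest of the group, at 127 and 148 CPM in WT and 34.6 and 28.0 CPM in Foxp1-deficient cells, a log2 fold change of -2.16 (SE 0.19, adjusted p = 0.00177). The transcription factors Gata1 and Plagl1 fell by 1.74 and 1.39. Nrp1, a semaphorin receptor of thymic Treg cells, rose by 0.68 (413 and 287 CPM against 522 and 581 CPM, adjusted p = 0.0316, edgeR), and this call was not kept without WT replicate 2, without Foxp1-deficient replicate 2 or without the block.

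**Figure D3:**
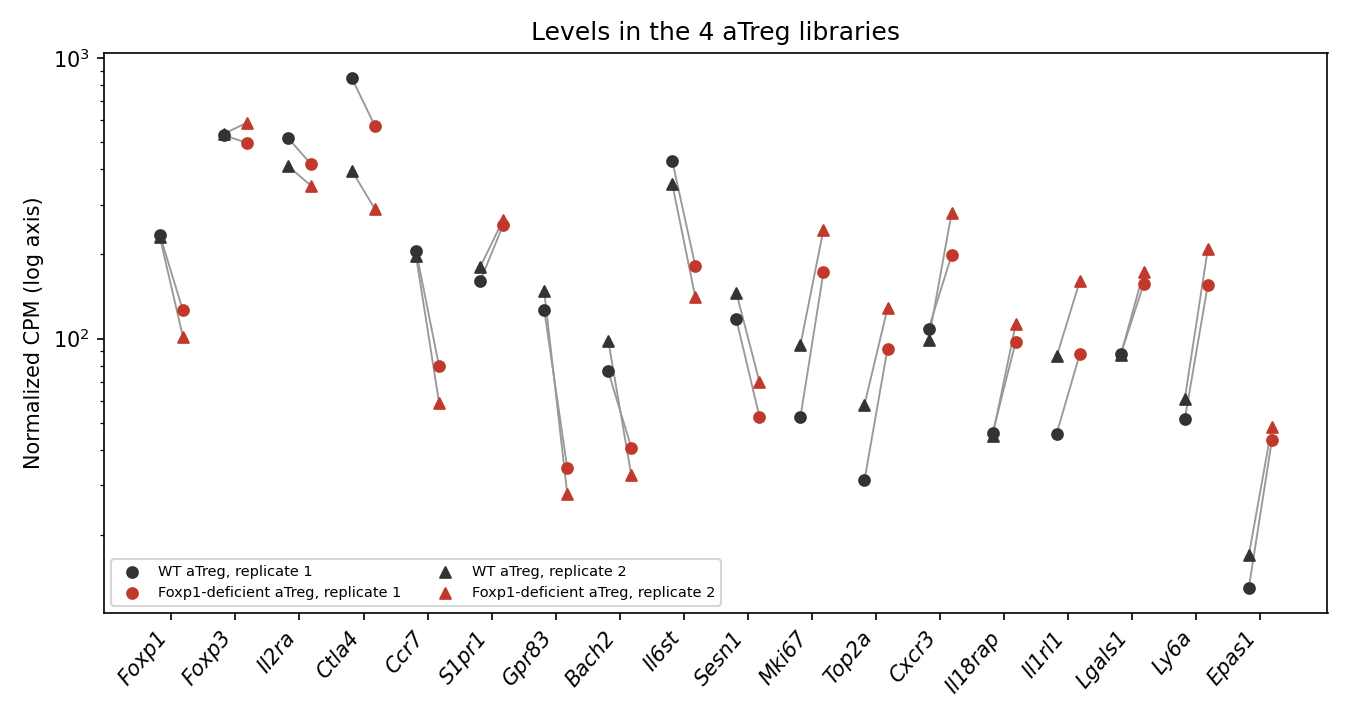
Normalized CPM (log axis) of 18 genes in the 4 aTreg libraries, with WT in black and Foxp1-deficient in red, circles for replicate 1, triangles for replicate 2, and a line joining each pair. Foxp3 differs in sign between the pairs, Ctla4 is lower in both pairs although its groups overlap, and for Ccr7, Gpr83 and Il6st both red points lie below both black points.

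Among 22 tested suppressive effector genes, 4 were higher and 0 lower, with a median of 0.26. Lgals1, which encodes galectin-1, was at 87.8 and 87.3 CPM in WT and at 157 and 173 CPM in Foxp1-deficient cells, a log2 fold change of 0.91 (SE 0.063, adjusted p = 6.41e-04). Penk, the enkephalin precursor that some Treg cells express, rose by 0.88, and Lgals3 (galectin-3) and the IL-1 decoy receptor Il1r2 rose by 1.34 and 1.20. Ctla4, the inhibitory receptor of Treg cells, was at 844 and 395 CPM in WT and at 570.5 and 289 CPM in Foxp1-deficient cells. It was lower within each pair, while the WT library of pair 2 lay below the Foxp1-deficient library of pair 1. Its log2 fold change was -0.51 (SE 0.075, adjusted p = 0.0103), short of 1.5-fold, and the adjusted p was 0.790 in edgeR without the block. Higher members numbered 5 without WT replicate 1, 2 without Foxp1-deficient replicate 1, and 1 without the replicate 2 library of either genotype. Of the 4 that rose, Lgals1 alone kept its call without the block and in all leave-one-out fits. Icos, an inducible co-stimulator, and Itgae (CD103) had log2 fold changes of 0.46 and 0.54 (adjusted p = 0.0424 and 0.0123, edgeR), below 1.5-fold.

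Receptors that place Treg cells in tissues changed in both directions. Of 15 tested chemokine receptors, 2 were higher and 2 lower. Cxcr3, the receptor of type 1 inflammatory chemokines, was at 108 and 98.5 CPM in WT and at 198 and 279 CPM in Foxp1-deficient cells, a log2 fold change of 1.19 (SE 0.14, adjusted p = 0.00374), called in every leave-one-out fit and not without the block (adjusted p = 0.0502, edgeR). Ccr4 rose by 0.63, while the gut receptor Ccr9 and the mucosal receptor Ccr6 fell by 0.89 and 0.62, and all 3 lost their call without the block. Cxcr5, the follicular receptor, had a log2 fold change of -0.58 (83.8 and 69.5 CPM against 57.7 and 45.1 CPM, adjusted p = 0.00821, edgeR), just under 1.5-fold. Among 14 tested chemokines and secreted cytokines, 0 were called by edgeR with the block.

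Of 30 tested adhesion genes, 3 were higher and 3 lower, with 2 higher without WT replicate 2 and 1 without Foxp1-deficient replicate 2. Itgb1, the β1 integrin chain, was at 589 and 502 CPM in WT and at 883 and 1189 CPM in Foxp1-deficient cells, a log2 fold change of 0.91 (SE 0.14, adjusted p = 0.0122), and was not called without WT replicate 2, without Foxp1-deficient replicate 2 or without the block. The α chains that pair with β1 differed in direction. Itga4, the α4 chain, was at 706 and 820.3 CPM in WT against 1102 and 1150 CPM, a log2 fold change of 0.57 that passed the test (adjusted p = 0.00246, edgeR) but not 1.5-fold. Itga5, the α5 chain of the fibronectin receptor, was at 16.7 and 13.7 CPM in WT against 3.86 and 4.10 CPM, a log2 fold change of -1.92 (SE 0.20, adjusted p = 0.00282), and Itga6, an α chain of laminin receptors, fell by 0.68. Itgb5 and Icam1 rose by 1.61 and 0.67. Selp, the P-selectin gene, had 20 and 8 counts in WT cells, and both Foxp1-deficient libraries had 0. Among 18 tested neuropilin, semaphorin and plexin genes, Sema6d, Plxnb2 and Nrp1 were higher and 0 lower. Sema6d was at 15.4 and 15.9 CPM in WT and at 50.7 and 71.3 CPM in Foxp1-deficient cells, a log2 fold change of 1.96 (SE 0.14, adjusted p = 8.47e-04).

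Cytokine receptors held some of the clearest changes. Of 30 tested, 5 were higher and 2 lower, with 3 higher without WT replicate 2, 1 without Foxp1-deficient replicate 2 and 2 without the block. Il6st, the gp130 chain shared by the receptors for IL-6 and related cytokines, was at 429 and 355 CPM in WT and at 181 and 140.2 CPM in Foxp1-deficient cells, a log2 fold change of -1.29 (SE 0.075, adjusted p = 3.23e-04). Both chains of the IL-18 receptor rose, Il18rap by 1.20 (46.0 and 45.0 CPM against 97.2 and 112 CPM) and Il18r1 by 0.90 (193 and 207 CPM against 287 and 472 CPM). Il1rl1, the IL-33 receptor ST2 of tissue Treg cells, was at 45.9 and 86.4 CPM in WT and at 87.8 and 160 CPM in Foxp1-deficient cells, a log2 fold change of 0.91 (SE 0.11, adjusted p = 0.00524). Here the ratio was alike in the pairs although replicate 2 was the higher library in each genotype, and the adjusted p was 0.351 in edgeR without the block. Il13ra1 rose by 2.49 from 1.43 and 1.92 CPM to 8.05 and 11.1 CPM. Tgfbr3, the TGF-β co-receptor betaglycan, fell by 1.01, and with the activin receptor Acvr1b, which fell by 1.06, it gave 2 lower and 0 higher genes of 30 tested in the TGF-β list. Neither was called without the block. None of the 17 tested genes of the IL-2 and STAT5 list was called by edgeR with the block, and 1 and 2 of them passed the adjusted p alone as higher and lower.

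Among transcription factors of effector lineages, 3 of 29 were higher and 0 lower, with 1 higher without the replicate 2 library of either genotype. Epas1 (HIF-2α) was at 12.9 and 16.9 CPM in WT and at 43.4 and 48.6 CPM in Foxp1-deficient cells, a log2 fold change of 1.62 (SE 0.11, adjusted p = 6.41e-04). Rora, and Prdm1, which encodes Blimp-1 of effector Treg cells, rose by 0.71 and 0.65, and neither was called without the block. Gata3 had a log2 fold change of 0.38 (adjusted p = 0.0185, edgeR), below 1.5-fold. Among 27 tested co-stimulatory and co-inhibitory receptors 1 was higher and 2 were lower. Klrg1, a marker of terminally differentiated Treg cells, rose by 1.15 (38.2 and 33.6 CPM against 92.7 and 68.2 CPM), while Cd160 and Cd200 fell by 0.84 and 0.59. Tigit, another inhibitory receptor, was at 183 and 96.6 CPM against 271 and 296 CPM, a log2 fold change of 1.07 that did not pass the test (adjusted p = 0.0589, edgeR).

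Genes of antigen receptor signalling changed little. Of 39 tested genes of proximal signalling, 1 was higher (Trac, the T cell receptor α constant region) and 0 lower, and of 26 calcium and NFAT genes 0 were called by edgeR with the block, where 3 passed the adjusted p alone as higher. The AP-1 and immediate early list had 2 higher and 2 lower genes of 32 tested and a median of -0.15. Jun was at 493 and 253 CPM in WT and at 284 and 124 CPM in Foxp1-deficient cells, a log2 fold change of -0.91 (SE 0.067, adjusted p = 8.73e-04), and Fosb fell by 0.59, while Fosl2 rose by 0.77. Ier3, the other higher gene, had at most 1.68 CPM in any aTreg library. Jun, Fosb and the phosphatase Dusp1, which fell by 0.63, also belong to a list of 20 genes that respond to tissue dissociation, in which these 3 were lower and 0 higher. The summed level of that list was 9062 and 5831 CPM in WT and 7067 and 5278 CPM in Foxp1-deficient cells, higher in replicate 1 of each genotype, and its part in the change of Jun was not tested. Dusp6, a phosphatase that switches off ERK, was at 87.2 and 78.1 CPM in WT against 51.1 and 38.4 CPM, a log2 fold change of -0.90 (SE 0.097, adjusted p = 0.00315), and with Dusp1 it gave 2 lower and 0 higher of 22 tested genes. In the TNF receptor list 1 of 20 was lower (Tnfrsf1a, by 0.59) and 0 higher.

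In the list of PI3K, Akt, mTOR and Foxo genes, 2 of 41 were higher and 2 lower. Sesn1, a Foxo and p53 target that restrains mTORC1, was at 117 and 145 CPM in WT and at 52.7 and 70.2 CPM in Foxp1-deficient cells, a log2 fold change of -1.10 (SE 0.074, adjusted p = 5.98e-04, or 0.0789 in edgeR without the block). Inpp5f, a phosphoinositide phosphatase, fell by 0.90 (212 and 181 CPM against 111 and 99.0 CPM). Phlpp1, which removes the activating phosphate of Akt, was at 97.3 and 72.8 CPM in WT and at 161 and 162 CPM in Foxp1-deficient cells, a log2 fold change of 0.94 (SE 0.11, adjusted p = 0.00424), and its relative Phlpp2 rose by 0.64. Igf1r and the PI3K inhibitor Pik3ip1 had log2 fold changes of -0.44 and -0.61 and did not pass both criteria (adjusted p = 0.0181 and 0.0550, edgeR).

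Metabolic lists moved as wholes by little. In the respiratory chain list 0 of 76 genes were called by edgeR with the block and 1 passed the adjusted p alone. In that list 70 genes lay above 0, against 7317 of the 14540 genes tested, and 59 were higher in both pairs. The median log2 fold change was 0.13, and the genes of a list are not independent replicates. The 79 ribosomal protein genes had 0 calls, 1 gene past the adjusted p alone, and a median of -0.04. Of 37 glycolysis genes, Tkt, the transketolase of the pentose phosphate pathway, was higher and Pfkfb4 and Pdk2, which control glycolytic flux and pyruvate entry, were lower. Tkt was at 185 and 163 CPM in WT and at 320.4 and 351 CPM in Foxp1-deficient cells, a log2 fold change of 0.95 (SE 0.083, adjusted p = 0.00169). Of 34 cholesterol and fatty acid genes, 2 were higher, the synthesis enzymes Ebp and Hsd17b7 (0.90 and 1.21), and 2 were lower, among them the exporter Abca1 (-0.86). Of 24 solute carriers, Slc15a3 was higher and Slc22a2 lower, of 26 DNA and histone methylation genes Uhrf1 was higher and Dnmt3b lower, and of 28 unfolded protein response genes and 8 GIMAP genes 0 were called by edgeR with the block, with 2 and 2 past the adjusted p alone as higher and 1 and 0 as lower.

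Interferon-stimulated genes were higher in 5 of 59 tested and lower in 0, with a median of 0.30 that was 0.020 in pair 1 and 0.47 in pair 2. Ly6a (Sca-1) was at 51.6 and 60.9 CPM in WT and at 155 and 209 CPM in Foxp1-deficient cells, a log2 fold change of 1.69 (SE 0.068, adjusted p = 6.16e-05). Oas1a and Oas3, sensors of double-stranded RNA, rose by 1.30 and 1.01, and the p200 genes Ifi204 and Ifi211 by 5.43 and 1.70. Ifi204 had 5 and 2 counts in WT against 71 and 237, so its fold rests on few WT counts. Gbp2b, an interferon-inducible GTPase that is not in the list, fell by 4.23. The p200 genes are near-identical neighbours whose reads can be shared, so their separate values are uncertain. Higher members numbered 2 without WT replicate 2 and 1 without Foxp1-deficient replicate 2, and Ly6a alone was called without the block and in every leave-one-out fit. Among 31 tested genes of antigen presentation, the class II genes H2-Eb1 and Cd74 were higher by 2.66 and 1.01 and H2-T3 was lower, and none was called without the block.

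**Figure D4:**
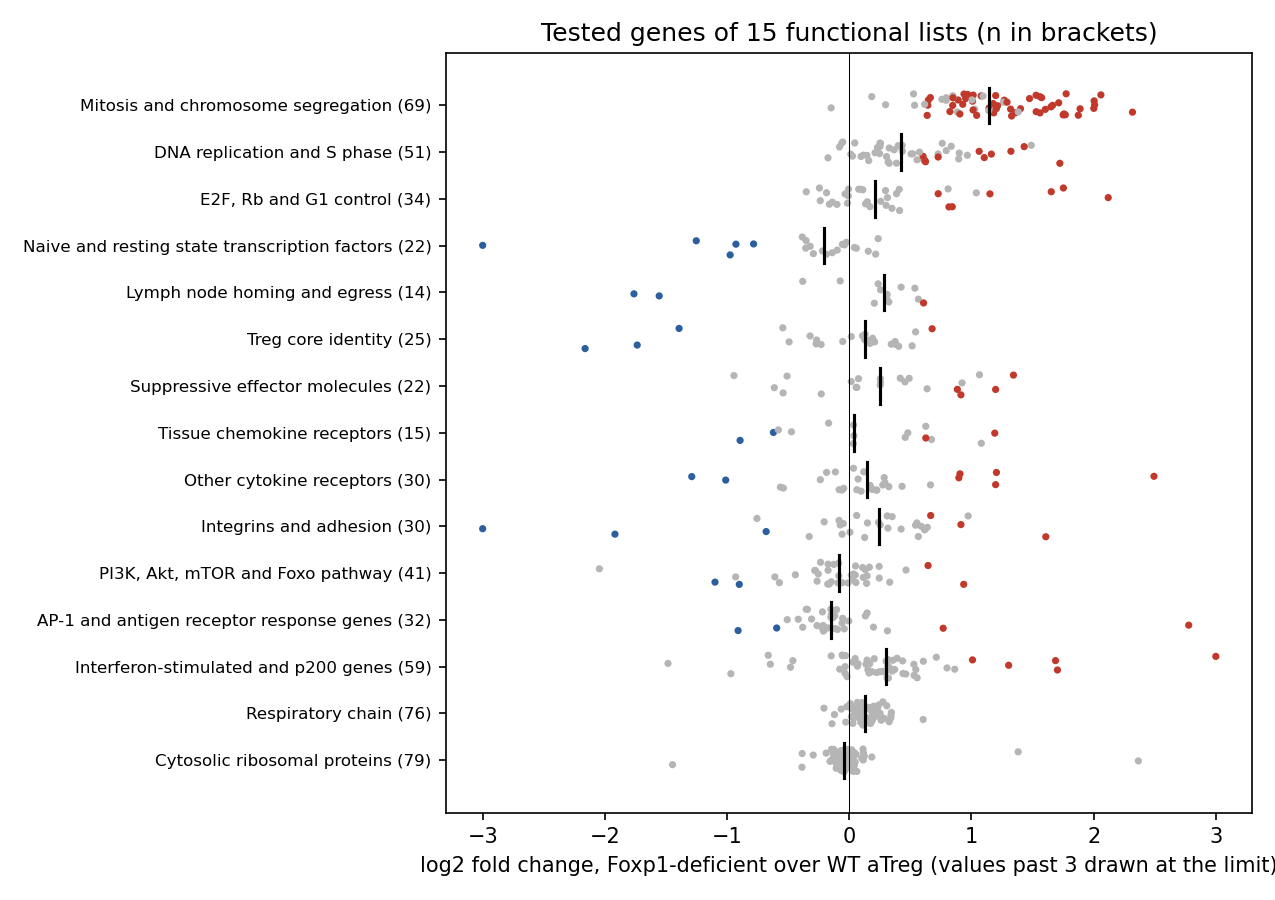
Each point is a tested gene of 1 of 15 functional lists, placed by its log2 fold change in aTreg cells (red called higher, blue called lower, gray not called), with a black bar at the list's median and the number of genes in brackets; 3 genes past 3 are drawn at the limit. The mitosis list stands to the right with its median at 1.14, while the respiratory chain and ribosomal lists lie close to 0 with no call.

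A few genes were at the floor of detection in one genotype. Genes with at most 3 counts in both libraries of one genotype and at least 20 in both of the other numbered 7 toward expression in Foxp1-deficient cells and 2 toward loss. Mpzl2, an adhesion protein gene on chromosome 9 (45039799 to 45054015, plus strand), had 1 and 0 counts in WT and 93 and 79 in Foxp1-deficient libraries. Porcn, which acylates Wnt proteins, had 1 and 3 counts against 74 and 71, the integrin gene Itgad 2 and 3 against 59 and 93, and the mucin gene Muc20 3 and 2 against 22 and 52. Col6a4, a collagen gene on chromosome 9 (105989454 to 106096783, minus strand), had 34 and 118 counts in WT and 0 and 1 in Foxp1-deficient libraries, and Exph5, an effector of Rab27, 23 and 40 against 1 and 2. No fold is given for these genes, since it would rest on the few counts of 1 genotype.

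Among called genes of at least 5 CPM in one genotype, the largest increases also included Epha3 and Gfra1, with log2 fold changes of 3.95 and 3.93. Epha3 had 1 and 7 counts in WT against 72 and 61, so its fold rests on few WT counts. Gfra1, a receptor for glial-derived neurotrophic factor, had 17 and 12 counts in WT and 289 and 201 in Foxp1-deficient cells. Tex35 was called higher from a single library, with 2, 3, 10 and 790 counts. The largest decreases included Gbp2b, at 25.5 and 24.1 CPM in WT and 1.34 and 1.29 CPM in Foxp1-deficient cells, a log2 fold change of -4.23 (SE 0.25, adjusted p = 3.23e-04). Gsta4, a glutathione transferase, fell by 2.77, and Cyp26b1, which degrades retinoic acid, had 40 and 108 counts against 6 and 1. Kcnf1, with 24 and 519 counts against 8 and 7, Xlr3b, with 78 and 367 against 6 and 41, and Sorcs2, with 41 and 189 against 14 and 14, each had several times more counts in WT replicate 2 than in WT replicate 1.

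Markers of other cells were measured in the same libraries. The summed level of the plasma cell list was 19.6 and 20.2 CPM in WT and 105 and 64.3 CPM in Foxp1-deficient cells, and 3 of its 9 tested genes were higher and 0 lower. These 3 were the immunoglobulin constant regions Ighg2c, with 0 and 1 counts in WT against 104 and 218, Ighg1, and Igkc, at 5.71 and 5.45 CPM against 40.1 and 24.2 CPM. The defining marker Sdc1 had 9 and 5 counts in WT and 14 and 3 in Foxp1-deficient libraries. The granulocyte and erythroid list summed to 21.9 and 22.3 CPM in WT and to 45.2 and 17.3 CPM in Foxp1-deficient cells, with Mpo at 3, 4, 68 and 14 counts and Prtn3 at 2, 1, 50 and 7 counts, highest in Foxp1-deficient replicate 1. Besides these 2 genes, which were higher, 1 of the 11 tested was lower, Gata1, which also stands in the Treg list. In rTreg cells, Mpo was at 0 and 0 CPM in WT against 3.98 and 2.60 CPM, and Prtn3 at 0 and 0 against 1.12 and 0.79 CPM. In rTreg cells the granulocyte and erythroid list had 5 higher and 1 lower gene, and the plasma cell list 4 higher and 0 lower. In the B cell (8 tested), CD8 T and NK cell (6 tested) and dendritic cell and macrophage (7 tested) lists, 0 genes were called by edgeR with the block and 0 passed the adjusted p alone. Ms4a1 had at most 4 counts and Cd8a at most 3 in any aTreg library, and the dendritic cell and macrophage list summed to 17.0 and 16.2 CPM in WT against 23.2 and 21.9 CPM. In the list for conventional helper T cells, 1 of 12 was lower (Dapl1), and of 12 tested mitochondrially encoded genes 0 were called by edgeR with the block and 1 passed the adjusted p alone as lower. The part of these cells in the immunoglobulin, class II and granulocyte genes was not tested.

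Promoters of the called genes were searched for TGTTTAC and TATTTAC on both strands, forms of the motif that forkhead factors bind. The window ran from 250 bases before to 50 after each RefSeq start. Either string was found in 6.69% of 284 promoters of the higher genes and in 4.05% of 247 promoters of the lower genes, against 4.10% of promoters of all genes tested and 6.54% of all promoters in the RefSeq table (GRCm38.p6). Of the higher genes 236 and of the lower genes 180 had a promoter in that table. A match describes the letters of the window and is not a binding site. Promoters with a match are shown for 3 genes that rose and 1 that fell and that are described above, with the match in capitals.
Il1rl1: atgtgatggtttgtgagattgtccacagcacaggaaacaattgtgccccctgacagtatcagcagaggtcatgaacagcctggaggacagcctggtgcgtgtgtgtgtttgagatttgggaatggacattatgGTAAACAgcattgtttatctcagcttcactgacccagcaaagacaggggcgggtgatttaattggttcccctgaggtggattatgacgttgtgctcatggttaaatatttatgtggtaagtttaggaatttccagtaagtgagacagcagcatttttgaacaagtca
Prdm1: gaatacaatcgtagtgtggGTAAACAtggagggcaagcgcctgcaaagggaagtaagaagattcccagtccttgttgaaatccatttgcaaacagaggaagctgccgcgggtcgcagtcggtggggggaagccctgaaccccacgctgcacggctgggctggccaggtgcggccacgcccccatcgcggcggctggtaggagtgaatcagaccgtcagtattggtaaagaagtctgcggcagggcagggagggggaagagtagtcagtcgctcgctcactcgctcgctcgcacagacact
Oas1a: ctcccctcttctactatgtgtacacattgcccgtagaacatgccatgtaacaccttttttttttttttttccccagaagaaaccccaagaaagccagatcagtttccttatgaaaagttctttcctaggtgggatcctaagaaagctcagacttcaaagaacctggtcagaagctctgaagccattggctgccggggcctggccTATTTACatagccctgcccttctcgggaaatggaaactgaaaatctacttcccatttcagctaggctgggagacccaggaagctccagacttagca
Sesn1: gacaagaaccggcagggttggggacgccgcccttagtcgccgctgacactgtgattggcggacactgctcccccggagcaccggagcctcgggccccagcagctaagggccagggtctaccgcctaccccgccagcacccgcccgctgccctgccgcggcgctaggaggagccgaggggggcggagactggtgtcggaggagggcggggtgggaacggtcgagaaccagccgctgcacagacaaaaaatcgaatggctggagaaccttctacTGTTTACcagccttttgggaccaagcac
The first is at chr1:40439379-40439678 (plus strand), the second at chr10:44458699-44458998 (minus strand), the third at chr5:120907476-120907775 (minus strand) and the last at chr10:41810324-41810623 (plus strand), all in GRCm38.p6 and written 5′ to 3′ on the strand of the gene. They belong to the IL-33 receptor, to Blimp-1, to a double-stranded RNA sensor and to the mTORC1 inhibitor. The windows of Il1rl1, Prdm1 and Sesn1 lie inside the GENCODE spans of these genes (40429570 to 40465415, 44437177 to 44528501 and 41809935 to 41908424). Which start is used in aTreg cells was not tested.

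The genotype effect in aTreg cells was set against that in rTreg cells by an interaction term in the same fit. The difference was called at an adjusted p under 0.05 for 48 genes (0.33% of those tested), 27 with the more positive effect in aTreg cells and 21 with the more negative. Only 21 of the 48 were also called within aTreg cells. The fit without the replicate block called 0 differences, and leaving out aTreg libraries gave 26 without WT replicate 2, 28 without Foxp1-deficient replicate 1, 1 without Foxp1-deficient replicate 2 and 167 without WT replicate 1. Il1rl1 rose in aTreg cells (0.91) and fell in rTreg cells (-1.94), where its level was 4.70 and 5.81 CPM in WT against 1.43 and 1.52 CPM (difference 2.84, adjusted p = 0.0203, edgeR). Ccr7 fell by 1.56 in aTreg cells and had a log2 fold change of -0.47 in rTreg cells (adjusted p of the difference 0.0316, edgeR). Dusp6 fell by 0.90 in aTreg cells, while in rTreg cells its log2 fold change was of the opposite sign, 0.38 (adjusted p of the difference 0.0242, edgeR). Mki67 and Top2a rose more in rTreg cells, by 2.75 and 2.93 against 1.53 and 1.32, and these were 2 of the 69 mitosis genes for which the difference was called (adjusted p = 0.0271 for both, edgeR). Phlpp1 rose more in rTreg cells as well, by 2.15 (adjusted p = 0.0304, edgeR). Ahnak, a large scaffold protein gene, was at 1356 and 1762 CPM in WT and at 1318 and 1800.2 CPM in Foxp1-deficient aTreg cells, while in rTreg cells it fell by 2.27 (difference adjusted p = 7.80e-05, edgeR). For Foxp1 itself the adjusted p of the difference was 0.0477 in edgeR.

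**Figure D5:**
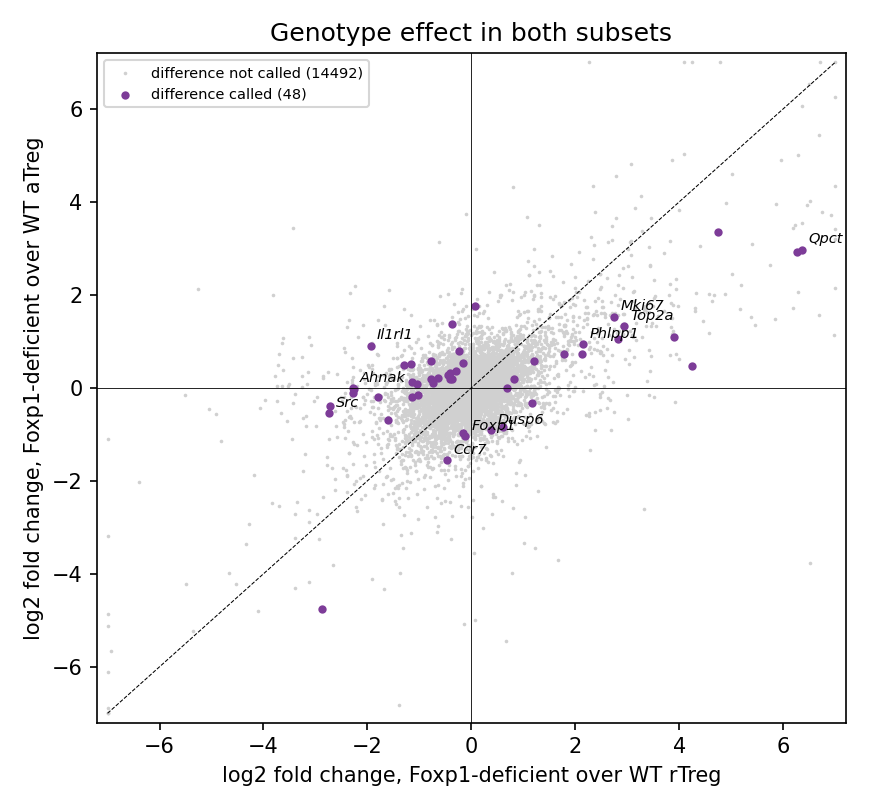
Each point is a tested gene, with its log2 fold change of Foxp1-deficient over WT in rTreg cells on the x axis and in aTreg cells on the y axis; the 48 genes whose difference was called are purple, the dashed line marks equal effects, and 20 genes past 7 are drawn at the limit. Il1rl1 lies above 0 in aTreg and below 0 in rTreg cells, while Mki67 and Top2a lie right of the line of equal effects.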

How the data were processed

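RNA of sorted WT and Foxp1-deficient Treg cells was sequenced in 8 libraries, and the comparison reported is that of the 4 aTreg libraries. The authors ran FastQC and trim_galore on the reads, took out duplicates by Picard and deposited htseq-count read counts per Ensembl gene, and the submitters' processing notes name HISAT2 2.0.5, HTSeq and mm10. In the 7598 genes with at least 100 counts in all 8 libraries, the deposited FPKM values equalled the count over the library total and a gene length (relative spread across libraries at most 2.83e-06); the other genes were not checked. All 27594 rows name a gene. Coordinates are those of GENCODE M21 (GRCm38), the assembly of mm10. Strand is not stated for the counting, so reads of overlapping antisense genes, and those of near-identical gene copies, cannot be told apart.

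Counts of the 14540 genes that passed filterByExpr (minimum count 10), of which 11789 code for protein, were fitted in edgeR 4.0.16 (R 4.3.3) with TMM scaling, glmQLFit and glmQLFTest. All 8 libraries shared 1 model of 4 group means with a block for the replicate number, after the study's paired analysis of 2 rounds of sequencing. The labels do not tie rounds to numbers, but each number had 1 sex, and same-numbered libraries deviated from their group means together (correlations across genes of 0.355 to 0.597, 0.380 between the aTreg groups; genes are not independent replicates). The highest correlations were 0.597 between the WT groups and 0.548 between the Foxp1-deficient groups, against 0.355 to 0.462 across genotypes. The model has no term for this link between the subsets of a genotype, and its effect on the p-values was not tested. A call needed an adjusted p-value below 0.05 together with 1.5-fold. On simulated counts of 14243 genes the fit recovered 88% of 2-fold and 97% of 3-fold changes, with 18 false calls. The changes were planted only in well-counted genes, and the counts were drawn from the blocked model itself. The simulation therefore does not measure recovery for genes of few counts, nor whether the block holds in these data.

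The functional lists (42) and the genes named were chosen with earlier results of these data known. The rule named Foxp1 and Treg markers, the 10 largest changes of each direction with the same sign in both pairs and at least 5 CPM in one genotype, the 3 most changed called genes of each list beside fixed key genes, genes at most at 3 counts in one genotype and at least at 20 in the other, and the 5 largest called differences between subsets in each direction. Predicted genes and RIKEN clones were left out of the text. The 13 alternatives included limma 3.58.1 and DESeq2 1.42.0 fits, other filters and scalings, FPKM values, and leaving out each aTreg library. A few genes that the naming rule covers are not reported here.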

Additional observations from a re-analysis of the deposited data

Results flagged for a closer look

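These results were singled out because the genotype effect differed between aTreg and rTreg cells by the interaction term of the fit (adjusted p under 0.05, edgeR). Each value is the log2 fold change in aTreg cells minus that in rTreg cells. Genes with the more positive effect in aTreg cells were Il1rl1 (2.84), Sh3bgrl2 (2.33), Ahnak (2.27), Cd55 (2.22), which encodes a complement inhibitor, and Src (2.19), a tyrosine kinase. Of these, Il1rl1 was called in both subsets, where it rose in aTreg cells and fell in rTreg cells. Sh3bgrl2, Ahnak, Cd55 and Src were called in rTreg cells alone, where they fell by 2.73, 2.27, 2.25 and 2.73.

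Genes with the more negative effect in aTreg cells were Lrp4 (-3.77), a Wnt and agrin co-receptor, Qpct (-3.40), an enzyme that cyclizes glutamine, Cyp2s1 (-2.82), Top2a (-1.61), Tesc (-1.46), Dusp6 (-1.28), Mki67 (-1.22), Phlpp1 (-1.22), Ccr7 (-1.08), Foxp1 (-0.92) and Nsg2 (-0.82). Lrp4, Qpct and Cyp2s1 rose in rTreg cells by 4.24, 6.37 and 3.91 on the log2 scale, against 0.46, 2.97 and 1.09 in aTreg cells. Lrp4 was near the floor in WT rTreg cells, at 0.276 and 0.393 CPM, against 6.85 and 6.36 CPM in Foxp1-deficient rTreg cells. Without the replicate block 0 differences were called.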

How the results depend on the processing

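Of the 344 higher and 242 lower genes, the counts stayed within 1.5 times under limma-voom (358 and 240), DESeq2 (264 and 193), other size factors (340 and 238) and a filter at 1 CPM in 2 libraries (343 and 242). They were 43 and 34 with no replicate block, so most calls rest on the pairing, 583 and 452 with no filter, 216 and 133 in the aTreg libraries alone, 171 and 107 on log2(FPKM + 1) and 100 and 84 on log2(FPKM + 0.1), where folds of low genes are understated. Leaving out 1 library gave 72 to 308 higher and 45 to 229 lower genes, with the lone sample assumed to vary like the other groups. The 48 differences between subsets became 0 with no replicate block, 279 in DESeq2, 573 with no filter, 4 on log2(FPKM + 1), 2 on log2(FPKM + 0.1) and 1 to 167 with 1 library left out. The cause of these moves was not tested. Foxp1 was called lower in every alternative, from -1.20 to -0.87 without 1 library. All 586 called genes kept their sign without the block, and 584 to 586 without 1 library. This is no independent check. Each replicate number occurs once in every group, so the block hardly alters the fitted change. The fits without 1 library reuse most of the libraries by which these genes were called. Values near 0 changed sign. Foxp3 ran from -0.11 to 0.15 with 1 library left out, and was -0.11 without WT replicate 2, -0.00817 without Foxp1-deficient replicate 2, -0.00744 on log2(FPKM + 1) and -0.00751 on log2(FPKM + 0.1). Cd3e was 0.000142 with no filter, 0.094 without WT replicate 1 and 0.079 without Foxp1-deficient replicate 1. Ahnak ran from -0.071 to 0.062 with 1 library left out, at 0.0059 with no filter, 0.012 without WT replicate 2 and 0.062 without Foxp1-deficient replicate 1. Cd55 ran from -0.25, at 0.30 without WT replicate 2 and 0.22 without Foxp1-deficient replicate 2, and Tcf7 ran from -0.21 to 0.12, the latter without WT replicate 2. With 2 libraries a group, 3 counts (up to 0.338 CPM) limit what is detectable in aTreg cells.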

Other observations

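Of the 586 called genes, 440 stood on none of the lists, 234 higher and 206 lower. The most abundant of them by FPKM, chosen after their values were seen, included cytoskeletal and S100 genes. Vim (vimentin) was at 414 and 437 CPM in WT and at 622 and 719 CPM in Foxp1-deficient aTreg cells, a log2 fold change of 0.66 (SE 0.084, adjusted p = 0.00638, edgeR). S100a11 and S100a10, calcium-binding partners of annexins, rose by 0.91 and 0.60, Prr13 by 0.70 and the actin-binding gene Tagln2 by 0.72. Among the lower ones, Actn1, which cross-links actin at adhesions, was at 148 and 211 CPM in WT and at 66.1 and 59.6 CPM in Foxp1-deficient cells, a log2 fold change of -1.51 (SE 0.15, adjusted p = 0.00246, edgeR). Tspyl2, Zfp219, Tesc and Ugcg, the glucosylceramide synthase, fell by 0.63, 0.64, 0.85 and 0.63. Only Actn1, Prr13 and Tspyl2 of these 10 were called without the block.

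Segments of the T cell receptor loci were called in both directions, with 13 higher and 4 lower of 139 tested. Trac was at 239 and 181 CPM in WT and at 384 and 470 CPM in Foxp1-deficient cells (1.03, adjusted p = 0.0161, edgeR), and among the 7 tested constant regions 4 were higher and 0 lower. Besides Trac these were the γ chain genes Tcrg-C1, Tcrg-C2 and Tcrg-C4, with only 3 to 14 counts in the WT libraries. None of the 4 was called without the block. Variable segments gave 7 higher and 4 lower of 85, most of them under 10 CPM, and near-identical segments can share reads. Around the Foxp1 locus, 1 of 7 tested genes within 1 Mb was called, Eif4e3, which rose by 0.74 and was not called without the block. Within 20 Mb, 1 gene was higher and 3 were lower of 227 tested, where 2.37% and 1.66% of all genes tested were called. An effect of the locus on its neighbours was not tested.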
